A study of Ascaridia galli and Trichostrongylus colubriformis with 4 samples.

Results

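Trichostrongylus colubriformis is a hairworm, a small roundworm that lives in the small intestine of sheep. Worms of this species were kept in dishes with a crude water extract of a moss, Pottia lanceolata, or with plain distilled water as control. The annotated transcripts of the sheep worm are described here, that is, the assembled unigenes for which the deposited table lists a best protein hit. They number 22595 of the 43810 unigenes in the table (51.6%), against 194608 unigenes for both worms of the series. Whole worms taken from sheep intestine gave 1 RNA library for extract and 1 for water. Both libraries stand in 1 table as condition B and condition A. The header does not say which of them is the extract, so no value can be read as an effect of the extract in either direction. The sources used here give neither the number of worms in a library nor which of the assay's extract concentrations (10, 20 and 50 mg/ml) the RNA came from.

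A unigene is a sequence put together from overlapping reads without a genome, and 1 gene can give several of them. The product name attached to it is that of the most similar protein found. Parasitic strongylid worms are known for a collagen cuticle, for secreted proteins of the SCP family, for gut peptidases that digest host protein, and for enzymes and pumps that handle drugs. The main classes of anthelmintic drug act on tubulin, on nicotinic acetylcholine receptors or on chloride channels gated by glutamate. In RNA of whole worms, fewer cells of a type and less RNA per cell cannot be told apart.

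The deposited values were whole multiples of 0.5 in condition B and of 2 in condition A. They correspond to 91812201 reads in condition B and 91182265 reads in condition A, of which 51703400 and 52108387 lay in annotated unigenes. With nearly equal numbers of reads, the deposited totals still differed 3.97-fold, at 45906100.5 normalized counts in condition B and 182364530 in condition A. Scaling both conditions to equal totals adds 1.99 to a log2 ratio (somewhat less at very low counts, because 1 is added to both values). Most counts and medians of groups of unigenes below are therefore given at both scalings. A count of higher or lower unigenes or a median ratio given only once is at the deposited scaling unless stated otherwise. Every unigene in the table had at least 1 read in each condition. Transcripts seen in 1 library alone are not part of these data.

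The 2 libraries had little in common at the level of single transcripts. Of the annotated unigenes, 19978 had a mean of at least 10 normalized counts and are called measured below, and the other 2617 are not counted further. The ratio is the log2 of condition B over condition A after adding 1 to both values. At the deposited scaling, condition B was higher by 4-fold or more for 7788 measured unigenes (39.0%) and lower by 4-fold or more for 7914 (39.6%). The fold was past 4 in 1 direction or the other for 78.6% of them, and only 1837 lay within 2-fold (9.2%). The middle 50% of the ratios ran from -4.21 to 3.45 around a median of 0.44. At equal totals, 10317 were higher by at least 4-fold (51.6%), 5601 were lower by as much (28.0%), 79.7% were past 4-fold in either direction, and the median was 2.34. The balance of higher and lower unigenes and the median therefore depend on the scaling.

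With 1 library per condition there is no replicate check, and no test between conditions was made. Unigenes without a protein hit were spread in the same way, with condition B higher by 4-fold or more for 38.0% and lower for 41.1%. At the edge of the minimum, the 136 annotated unigenes with a mean of 10 to 10.5 had a median ratio of -0.53, and the 150 with a mean of 9.5 to 10 had -1.32. In the authors' deposited table, 7981 annotated unigenes were marked up, 8694 down and 5920 neutral. The lowest unadjusted p in that table was 0.1 for annotated unigenes, and every adjusted p was 1.

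The ratios did not form a single peak. Among the annotated unigenes that reached 1000 normalized counts in 1 condition, the plot of ratios shows 3 groups. In the first, 822 unigenes had a ratio from -10 to -9 and 801 a ratio from -9 to -8. In the second, 611 had a ratio from -3 to -2, close to -1 to 0 at equal totals, with 164 unigenes from -5 to -4 and 50 from -1 to 0 on its 2 sides. In the last, 880 had a ratio from 4 to 5. At equal totals, the unigenes on the side of condition B, past 4-fold, held 66.8% of the annotated counts of condition B and 1.06% of those of condition A. Those at least 4-fold lower held 1.54% of the counts of condition B and 62.1% of those of condition A. The 4060 unigenes within 4-fold held 31.7% in condition B and 36.8% in condition A.

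**Figure D1:**
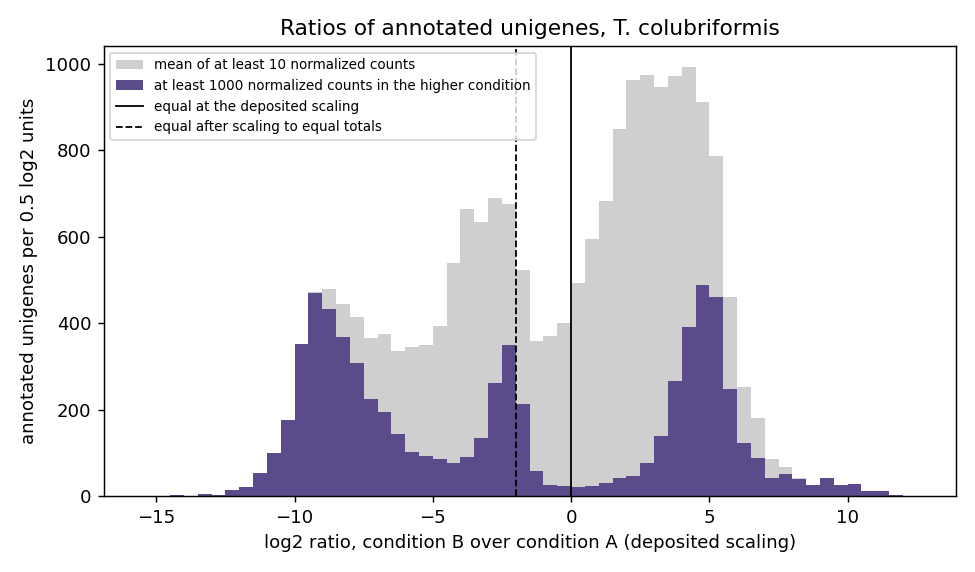
Number of annotated T. colubriformis unigenes (y axis) by log2 ratio of condition B over condition A at the deposited scaling (x axis, steps of 0.5), with grey bars for all 19978 measured unigenes and purple bars for those that reach 1000 normalized counts in 1 condition. The solid line marks equal deposited values and the dashed line equal shares of the total. The purple bars form 3 separate peaks, the middle one beside the dashed line.

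Where a transcript was far apart in the 2 libraries, the lower library still held a small fraction of its reads. On the side of condition A, the 2141 unigenes with 1000 to 10000 reads in condition A had a median of 39 reads in condition B, and the median of their reads in condition B over those in condition A was 0.98%. For the 33 with at least 100000 reads in condition A, this median was 0.784%. On the side of condition B, the 3101 unigenes with 1000 to 10000 reads in condition B had a median of 32 reads in condition A, and the same fraction was 0.968%. It was 0.594% for the 35 unigenes with at least 100000 reads in condition B. At 10 to 100 reads in the higher library the fraction was larger, 10.8% on the side of condition A and 6.78% on that of condition B, where the least count of 1 read already sets a floor. From 1000 reads upward the lower value grew nearly in step with the higher one, on both sides alike. Whether reads passed between the libraries was not tested, so a few reads in the lower condition do not show that the transcript was made there. The same limit holds for the low counts behind the largest ratios below.

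Counted by product, the leading names of the 2 libraries overlapped in part. Names without information, mostly "Uncharacterized protein", covered 14211 annotated unigenes (62.9%) and held 65.1% of the annotated counts in condition B and 66.0% in condition A. The remaining 8384 unigenes had 2808 informative product names. The file gives no transcript lengths, so a share ranks products by reads and not by molecules. A product name can rest on a short or weak match. The match covered a median of 52.7% of the hit protein for unigenes at least 4-fold higher in condition B. For those at least 4-fold lower it covered 69.2%. Among unigenes named below, 60109 matched 32 of 368 residues of its hit, 51851 matched 67 of 540 and 16752 matched 110 of 110. Counting error alone put the 95% exact binomial interval of the share of each leading product named in the next 3 paragraphs within 0.00701 percentage points on either side.

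The largest informative product in both libraries was a phosphoglycolate/pyridoxal phosphate phosphatase family protein, a member of a family that removes phosphate from small metabolites. It held 3.35% of the annotated counts in condition B and 3.45% in condition A. Nearly all of this was unigene 77522, with 866011 normalized counts in condition B and 3597150 in condition A, a log2 ratio of -2.05 that becomes -0.06 at equal totals. WD repeat proteins, whose propellers serve as scaffolds for other proteins, ranked 2nd in condition B with 0.774% and 3rd in condition A with 0.897%. Unigene 77361 gave 83.0% and 93.2% of this. A leucine-rich repeat protein had 0.409% in condition B and 0.615% in condition A, and its unigene 41413 had a ratio of -0.65 at equal totals. These 3 products were the ones found among the 10 largest of both libraries.

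Condition B carried a second set of leading products that held smaller shares in condition A. C2H2 zinc finger proteins, which bind DNA or RNA, had 0.740% in condition B and 0.178% in condition A. Of the counts in condition B, 69.4% were in unigene 44172, with 132700.5 normalized counts in condition B and 2854 in condition A. Unigene 42251, named for the SWIRM domain found in chromatin proteins, had 131061.5 normalized counts in condition B and 2952 in condition A, a ratio of 5.47. Suppressor of forked, known from Drosophila as a part of the machinery that cleaves the 3′ end of messenger RNA precursors, had 110370.5 in condition B and 3476 in condition A through unigene 51851. UDP-glucuronosyltransferases, which attach a sugar to lipid-soluble compounds, held 0.440% in condition B and 0.109% in condition A. Their unigene 2894 alone had 81951.5 normalized counts in condition B and 94 in condition A. Flap endonuclease 1, which trims DNA flaps in replication and repair, had 89224 in condition B and 33880 in condition A (unigene 87351, ratio 1.40, and 3.39 at equal totals). The others were kinase domain proteins under 2 names, a prenyltransferase repeat protein and a protein with domains of bacterial sensor kinases.

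Other products ranked high in condition A. ThiF family proteins, related to the enzymes that activate ubiquitin, were second in condition A with 1.09% and ranked 895th in condition B. Their unigene 16000 had 992.5 normalized counts in condition B and 1117978 in condition A, a ratio of -10.14. Bestrophin homologs, which form chloride channels, held 0.0871% in condition B and 0.782% in condition A, the share in condition A mostly in unigene 1197 (583 in condition B and 752806 in condition A). Serine/threonine-protein phosphatases held 0.153% in condition B and 0.666% in condition A, led by unigene 17623 with 1078.5 in condition B and 632602 in condition A. An aldo/keto reductase (unigene 14417) had 5721 in condition B and 444532 in condition A. Regulator of nonsense transcripts 1, the helicase of nonsense-mediated decay, had 4021 in condition B and 415992 in condition A in its single unigene 16951. CRE-KIN-25, named after a Caenorhabditis remanei protein, had 813 in condition B and 414696 in condition A (unigene 31299). At equal totals the ratios of these 6 unigenes lay between -8.34 and -4.29. Of the other products among the 12 largest of condition A, metalloendopeptidases and SCP-like proteins were closer in share. Metalloendopeptidases held 0.312% in condition B and 0.415% in condition A, and SCP-like proteins 0.283% in condition B and 0.337% in condition A. Papain family cysteine protease fragments were further apart, at 0.0966% in condition B and 0.332% in condition A.

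**Figure D2:**
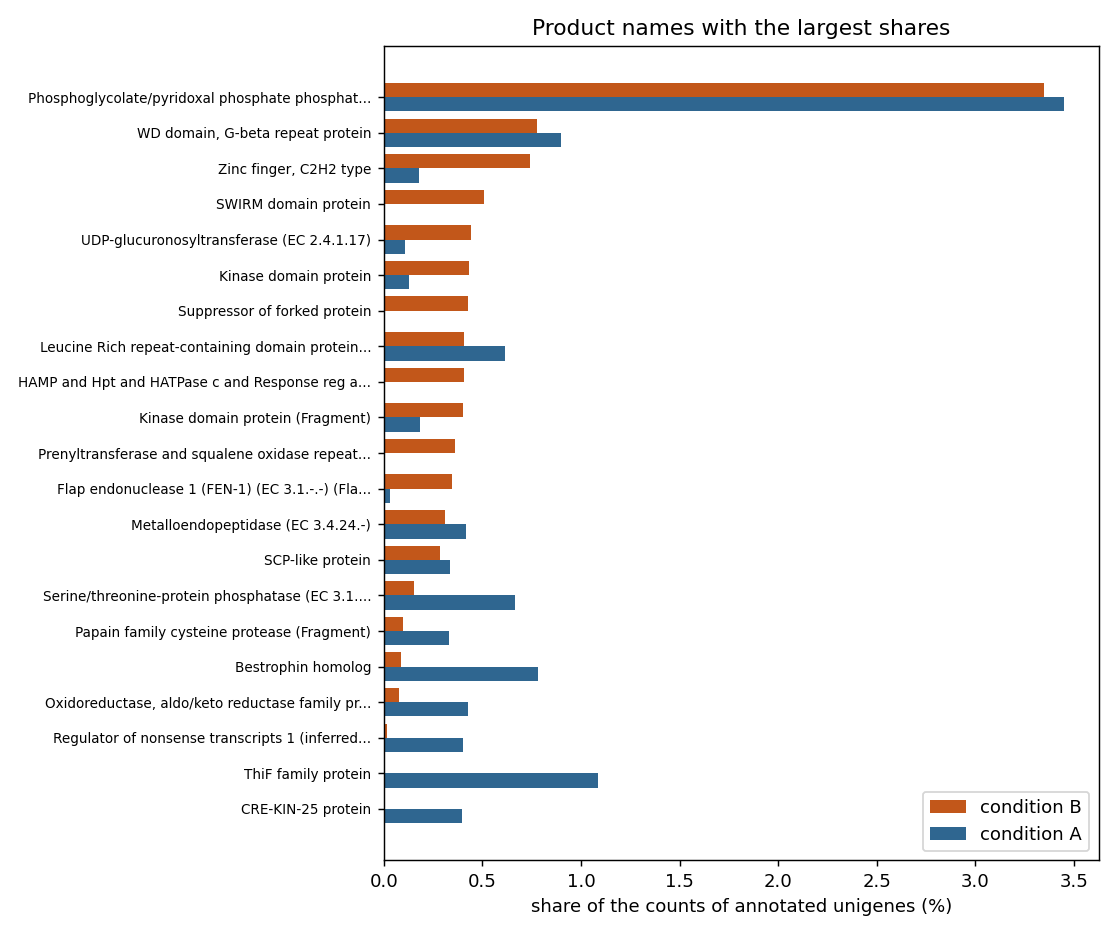
Share of the counts of all annotated unigenes (x axis, %) held by each informative product name among the 12 largest of either condition, with orange bars for condition B and blue bars for condition A. The phosphatase family at the top has 3.35% in condition B and 3.45% in condition A, while products such as SWIRM and ThiF are visible in 1 condition only.

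The overlap of the 2 compositions depended on the level at which they were compared. It is the sum, over items, of the smaller of the 2 shares, and covers only unigenes with at least 1 read in each condition. By unigene, the annotated transcripts of condition B and condition A overlapped by 30.7%. By best-hit protein the overlap was 34.5% and by product name 81.6%. Among informative names it was 32.5% by unigene and 50.0% by product name. The value by product name rests on the uninformative names that fill most of both libraries. Of the 10 annotated unigenes with the most counts in each condition, 4 were the same, which is 40% of each list, and of the top 100 there were 29. The top 100 of condition B held 36.5% of the counts in condition B and 17.0% in condition A, and the top 100 of condition A held 16.3% in condition B and 39.2% in condition A. Of the annotated counts, 50% lay in 307 unigenes in condition B and in 263 in condition A, and 90% in 3211 unigenes in condition B and in 2328 in condition A.

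Summed under their product name, most products still lay past 4-fold. Of 2652 informative product names with a summed mean of at least 10, condition B was higher by 4-fold or more for 811 (30.6%) and lower for 1117 (42.1%) at the deposited scaling, and 724 lay within 4-fold. At equal totals 1169 were higher (44.1%), 669 lower (25.2%) and 814 within 4-fold. Of the informative products, 1395 had a single measured unigene.

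The products with the largest ratios in favour of condition B were seen with very few reads in condition A. They were ranked by the end of the 95% exact counting interval nearest to 0, among informative unigenes that reached 1000 normalized counts in 1 condition. Condition A reaches this cutoff with fewer reads than condition B. An immunoglobulin I-set protein (unigene 41567), of a fold used in cell adhesion and in the giant proteins of muscle, had 75680 normalized counts in condition B and 24 in condition A, a ratio of 11.56 with an interval of 10.50 to 13.07. CBN-ADT-1 (unigene 89845), named after a Caenorhabditis brenneri protein, had 59054.5 in condition B and 34 in condition A (ratio 10.72, interval 9.87 to 12.06). An ELMO/CED-12 family protein, which in Caenorhabditis elegans acts in the engulfment of dying cells, had 42311.5 in condition B and 28 in condition A (unigene 82732, ratio 10.51). Ubiquitinyl hydrolase 1, which removes ubiquitin from proteins, had 46705 in condition B and 36 in condition A (unigene 37667, ratio 10.30). A further 5 were a DEP domain protein, an acyltransferase, a kinase domain protein, a zinc knuckle protein and a methyltransferase domain protein, with ratios between 10.24 and 11.94. Counting error did not bring any of these 9 below a log2 ratio of 9.25 at the deposited scaling. At equal totals their ratios lay between 12.19 and 13.78.

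The largest ratios in favour of condition A likewise rested on very few reads in condition B. A C3HC4 zinc finger protein, of the RING type found in ubiquitin ligases, had 7.5 normalized counts in condition B and 171112 in condition A (unigene 14030, ratio -14.30, interval -15.60 to -13.41). A CAP-Gly protein, of a domain that binds microtubule ends, had 8 in condition B and 44770 in condition A (unigene 86422, ratio -12.28, interval -13.66 to -11.47). An armadillo/beta-catenin-like protein had 7 in condition B and 40038 in condition A (unigene 2788, ratio -12.29). An ATP-dependent DNA helicase had 2 in condition B, which is 4 reads, and 24638 in condition A (unigene 32820, interval -16.63 to -11.74). A 3-oxo-5-alpha-steroid 4-dehydrogenase, a steroid-reducing enzyme, had a single read in condition B and 12188 normalized counts in condition A (unigene 23718). An LSM protein, of the rings that bind small nuclear RNA, had 2 reads in condition B and 17412 normalized counts in condition A (unigene 16752, ratio -13.09, interval -19.39 to -11.61). A LINE-1 reverse transcriptase, a short-chain dehydrogenase, an integrase core protein and a protein with a GTPase domain made up the 10, with ratios between -12.70 and -11.88. At equal totals the ratios of the 10 lay between -12.39 and -9.98.

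A smaller set of transcripts took about the same share of both libraries. At equal totals, 785 of the 7391 measured informative unigenes lay within 2-fold. This share is close to that of all 19978 measured unigenes, of which 2117 did (10.6%). Named after their values were seen, as the most abundant of them beyond the 3 described above, were the following. Transcription factor BTF3, which in yeast and mammals forms part of a complex at the ribosome that binds new proteins, had 65451.5 normalized counts in condition B and 254510 in condition A (unigene 64875), which is 130903 reads in condition B and 127255 in condition A. A Ras family protein, a small GTPase of signalling and traffic, had 40533 in condition B and 207214 in condition A (unigene 4771). The protein kinase dkf-2, which in Caenorhabditis elegans is a protein kinase D, had 34519 in condition B and 160204 in condition A (unigene 51484). A metalloendopeptidase had 42690.5 in condition B and 143034 in condition A (unigene 6256). A tartrate-resistant acid phosphatase had 37878 in condition B and 136818 in condition A (unigene 60109), and a phospholipid-transporting ATPase, which moves lipids across membranes, had 20247 in condition B and 132078 in condition A (unigene 16363). At equal totals these 6 ratios lay between -0.72 and 0.25.

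Because the 2 scalings lie 1.99 log2 units apart, almost no transcript was within 2-fold at both. There were 21 such informative unigenes, with ratios close to -1 at the deposited scaling. The most abundant was a gluconokinase with 181.5 normalized counts in condition B and 362 in condition A (unigene 39246), followed by a putative membrane protein, an RPAP1-like protein, a DOMON domain protein and the ubiquitin ligase parkin, none above 84 normalized counts in either condition.

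The same product was often found on both sides. Of the 1248 informative product names with at least 2 measured unigenes, 715 (57.3%) had 1 unigene at least 4-fold higher and another at least 4-fold lower in condition B. With 39.0% of all measured unigenes higher and 39.6% lower, unrelated unigenes also often fall on opposite sides. Whether unigenes of 1 product differ from this was not tested. At equal totals there were 690 (55.3%). SCP-like proteins, secreted by strongylid worms in large amounts, had 22 of 94 measured unigenes higher and 46 lower (36 and 33 at equal totals). Their unigene 74610 had 7886 normalized counts in condition B and 332 in condition A, and their unigene 17122 had 62.5 in condition B and 39882 in condition A. Serine/threonine-protein phosphatases had 9 of 20 higher and 8 lower (11 and 6 at equal totals). Against unigene 17623 described above stood unigene 44195, with 26198 in condition B and 84 in condition A. Metalloendopeptidases, a family used by worms in moulting and in breaking down tissue, had 8 of 35 higher and 16 lower (11 and 13 at equal totals). Unigene 54722 had 4958 in condition B and 200 in condition A, and unigene 18699 had 125 in condition B and 62970 in condition A. Papain family cysteine protease fragments had 3 of 19 higher and 12 lower (5 and 8 at equal totals). Ras family proteins had 13 of 25 higher and 7 lower.

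**Figure D3:**
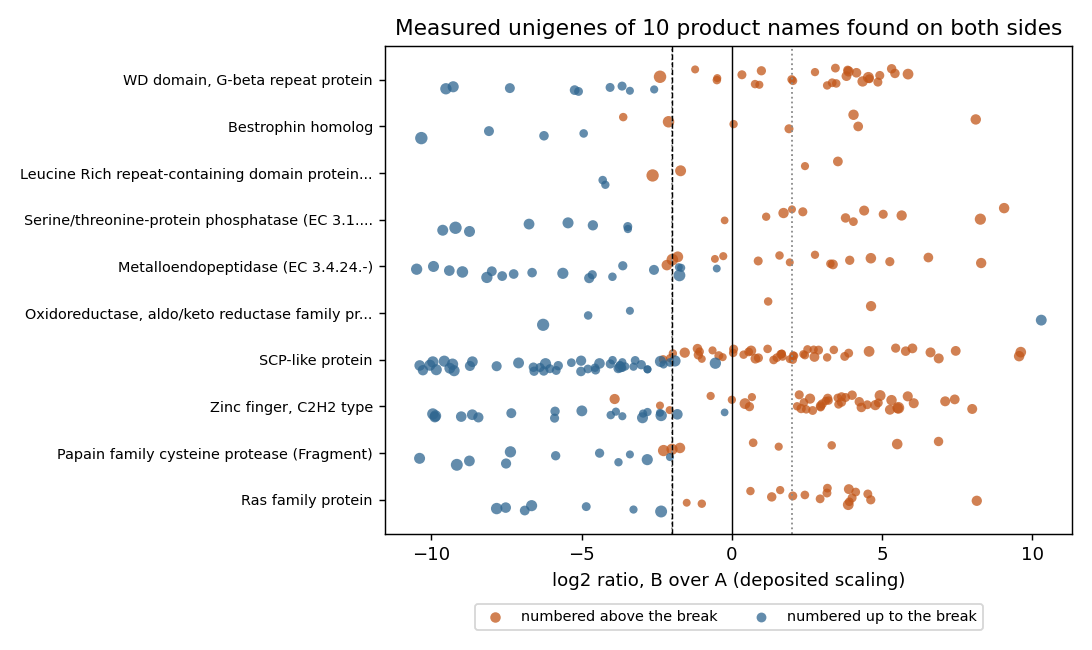
Log2 ratio of condition B over condition A at the deposited scaling (x axis) of each measured unigene of the 10 most abundant informative product names that had unigenes at least 4-fold apart in both directions (rows). Larger points have more counts, orange points have unigene numbers above the break described in the text and blue points numbers up to it. Dotted lines at -2 and 2 mark 4-fold and the dashed line equal shares of the total. Points of each row lie on both sides of 0, orange mostly right and blue mostly left.

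Unigenes with the same best-hit protein also fell on both sides, and again no comparison with unrelated unigenes was made. Measured unigenes hit 14518 different proteins, of which 3716 were the best hit of at least 2. For 1599 of these (43.0%), 1 unigene was at least 4-fold higher and another at least 4-fold lower in condition B. At equal totals there were 1506 (40.5%). Taking the most abundant unigene on each side, the stretches of the protein that the 2 unigenes matched overlapped by at least 50% of the shorter one in 1391 pairs (87.0%), and 151 pairs had no residue in common. Percent identity to the protein was much the same on the side of condition B (median 77.0%) and on that of condition A (median 76.3%). Adding the 2 unigenes of a pair together gave a median ratio of -1.29 at the deposited scaling and 0.69 at equal totals, with the middle 50% from -1.46 to 3.67 at equal totals. The nucleotide sequences were not used here, so whether such pairs are alleles, gene copies or pieces of 1 transcript was not tested.

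The side a transcript fell on went with its number in the assembly. The running count of unigenes at least 4-fold higher minus those at least 4-fold lower turned between number 34722 and number 34723. This break was placed with the ratios themselves, so the difference across it is a description. Of the 7681 measured annotated unigenes up to number 34722, 34 were higher in condition B by 4-fold or more (0.443%) and 7262 were lower (94.5%), and their median ratio was -5.67. Of the 12297 above it, 7754 were higher by 4-fold or more (63.1%) and 652 were lower (5.30%), with a median of 2.84. At equal totals the medians were -3.88 and 4.69. Unigenes without a hit were divided at the same place, with medians of -5.53 up to the break and 2.83 above it.

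In bins of 3000 numbers, medians up to number 33000 lay between -6.11 and -5.27. From 36000 upward they lay between 2.54 and 3.0. No unigene numbered above 93950 had a protein hit, although the table ran to 102063. In the pairs that hit 1 protein from both sides, the partner on the side of condition A had a number up to the break in 93.3% and the partner on the side of condition B a number above it in 99.5%. These shares are close to those of all measured annotated unigenes. Of those at least 4-fold lower in condition B, 91.8% were numbered up to the break, and of those at least 4-fold higher, 0.437%. The measured annotated unigenes up to the break held 7.56% of all counts in condition B and 44.6% in condition A, while those above it held 48.7% in condition B and 12.5% in condition A. How numbers were assigned in the assembly is not given in the sources used here, and their part in the results was not tested.

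**Figure D4:**
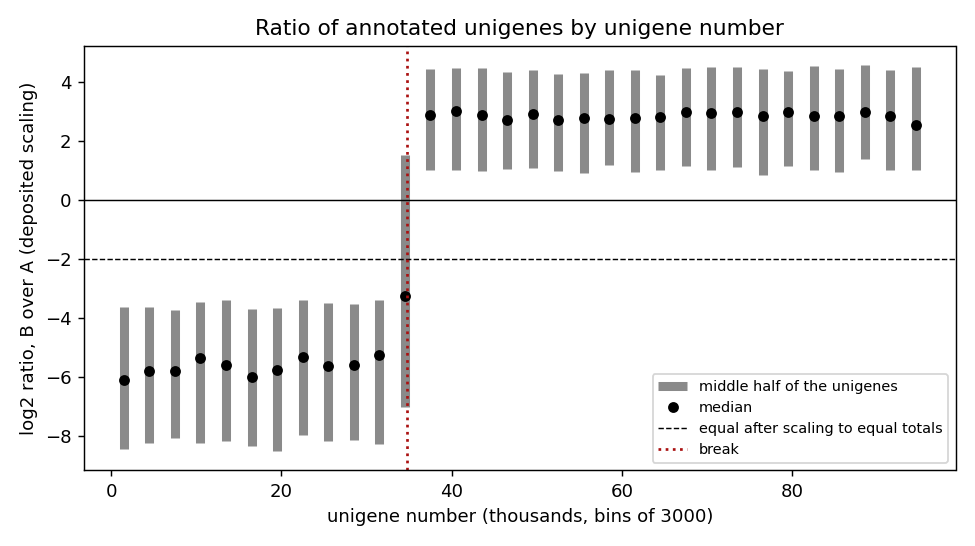
Log2 ratio of condition B over condition A at the deposited scaling (y axis) of measured annotated unigenes in bins of 3000 unigene numbers (x axis, in units of 1000). Points are medians, grey bars the middle 50% of each bin, the dotted line the break at 34722 and the dashed line equal shares of the total. Medians lie between -6.11 and -5.27 in the bins that end left of the break and between 2.54 and 3.0 in those that start right of it.

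Classes of related products were set beside the background of 39.0% higher and 39.6% lower, or 51.6% higher and 28.0% lower at equal totals. Of 46 classes defined by product name, 42 had at least 5 measured members, and each of the 42 had members at least 4-fold apart in both directions. Class medians were below 0 for 22 of them at the deposited scaling and for 11 at equal totals. Among members numbered up to the break, the medians of the 37 classes with at least 5 such members ran from -8.35 to -3.30. Among members above the break, the medians of 38 classes ran from 1.55 to 4.57. Of all measured annotated unigenes, 38.4% were numbered up to the break. Since the break was placed with the ratios, this is a description. In the next paragraphs, higher and lower mean by at least 4-fold in condition B, and a pair of counts at equal totals gives those higher and then those lower. The members named are the most abundant by the mean of the deposited values, a scale on which condition A weighs 3.97 times as much as condition B.

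Structural proteins of muscle and cuticle were split. Of 44 measured muscle proteins, 18 were higher and 20 lower, with a median of -0.83. At equal totals 21 were higher and 14 lower, with a median of 1.15. Actin (unigene 92274), the thin filament protein, had 10397 normalized counts in condition B and 50258 in condition A, a ratio of -0.28 at equal totals. Calsequestrin, the calcium-binding protein of the muscle store, had 99 in condition B and 36912 in condition A (unigene 2005). Of 77 cuticle collagens and cuticlins, 35 were higher and 28 lower, with a median of 1.32 (44 and 21 at equal totals, median 3.23). Their 2 most abundant members were close to equal shares, unigene 39612 with 6176.5 in condition B and 29112 in condition A and unigene 22268 with 4750 in condition B and 28362 in condition A. Tubulins, the target of benzimidazole drugs, had 3 of 10 members higher and 4 lower (4 and 3 at equal totals). Their leading alpha chain had 3683.5 in condition B and 14432 in condition A (unigene 34996), a ratio of 0.02 at equal totals.

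Reproductive products were few. Major sperm protein, which drives the crawling of nematode sperm, had 12 of 26 members higher and 5 lower, with a median of 1.73 (17 and 3 at equal totals, median 3.57). Its most abundant unigene went the other way, with 19 normalized counts in condition B and 24386 in condition A (unigene 19390). The next product name in the class, an MSP domain protein, had 506 in condition B and 88 in condition A (unigene 47585). Of 6 eggshell, chitin and proteoglycan products, 3 were higher and 3 lower at both scalings. The single annotated yolk protein had a mean below 10. Histones had 8 of 20 members higher and 9 lower (11 and 8 at equal totals), led by histone H4 with 3589 in condition B and 45416 in condition A (unigene 11673).

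Among gut peptidases and secreted proteins, serine peptidases and transthyretin-like proteins had more members lower than higher at both scalings. Cysteine and aspartic peptidases, metallopeptidases and SCP/TAPS proteins did so at the deposited scaling but not at equal totals. Of 96 cysteine and aspartic peptidases, which start the digestion of host protein, 29 were higher and 44 lower (median -1.75), against 42 and 27 at equal totals (median 0.13). Metallopeptidases and aminopeptidases had 25 of 73 higher and 34 lower (median -1.77), against 28 and 28 at equal totals (median 0.17). The papain fragment of unigene 2022 had 341 normalized counts in condition B and 194472 in condition A, but the most abundant complete papain name, unigene 62348, had 13062 in condition B and 57780 in condition A. Serine peptidases had the lowest median among classes with at least 10 measured members, with 8 of 41 higher and 30 lower (median -4.83). At equal totals 9 were higher and 25 lower (median -2.86), and 73.2% of them were numbered up to the break. Trypsin had 92 in condition B and 20844 in condition A (unigene 22795), and a serine carboxypeptidase S28 had 78 in condition B and 25224 in condition A (unigene 811). The 11 serine peptidases numbered above the break had a median of 3.23. Of 111 SCP/TAPS proteins, 29 were higher and 52 lower (median -1.32), but 44 were higher and 37 lower at equal totals (median 0.58). Unigene 18064, their most abundant, had a ratio of -0.55 at the deposited scaling and 1.44 at equal totals, with 26175.5 in condition B and 38300 in condition A. Transthyretin-like proteins, a secreted family expanded in nematodes, had 7 of 34 higher and 21 lower (median -2.66), against 12 and 13 at equal totals (median -0.78). Unigene 26742 of this family had 369 in condition B and 85314 in condition A. Of 87 protease inhibitors, 34 were higher and 34 lower (43 and 20 at equal totals). Of 35 C-type lectins and galectins, which bind sugars, 17 were higher and 16 lower (19 and 11 at equal totals).

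Products that handle foreign compounds had members on both sides at either scaling. UDP-glucuronosyltransferases and cytochromes P450 had 15 of 41 members higher and 18 lower (23 and 13 at equal totals). The large value of unigene 2894 in condition B, described above, was exceptional in that its number lies up to the break. A cytochrome P450 name had 1394 normalized counts in condition B and 48 in condition A (unigene 45197). Glutathione S-transferases, which couple toxic compounds to glutathione, had 4 of 9 higher and 5 lower at both scalings, with unigene 10646 at 25.5 in condition B and 16044 in condition A and unigene 73076 at 479.5 in condition B and 16 in condition A. ABC transporters, which pump compounds out of cells, had 16 of 54 higher and 21 lower (29 and 17 at equal totals), led by unigene 32135 with 489 in condition B and 116876 in condition A. Short-chain and aldo-keto reductases had 12 of 39 higher and 20 lower (median -2.23), against 16 and 11 at equal totals (median -0.24). Antioxidant enzymes had 14 of 44 higher and 20 lower (21 and 17 at equal totals). Among them, a copper-zinc superoxide dismutase had 320.5 in condition B and 43022 in condition A (unigene 26822), and a glutathione peroxidase had 5468.5 in condition B and 24026 in condition A (unigene 38525). Of 72 heat shock proteins and chaperonins, 29 were higher and 28 lower (36 and 20 at equal totals).

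Glycolytic enzymes had 22 of 51 members higher and 15 lower (median 1.71, and 3.45 at equal totals), although the 2 members named by the rule, pyruvate kinase with 21 normalized counts in condition B and 21704 in condition A (unigene 208) and L-lactate dehydrogenase with 12 in condition B and 7510 in condition A (unigene 30879), lay on the side of condition A. Enzymes of malate metabolism and of anaerobic mitochondria, the fermentative route of parasitic worms, had 20 of 40 higher and 16 lower (median 2.22, and 4.18 at equal totals). Respiratory chain and ATP synthase subunits had 23 of 66 higher and 31 lower (median -1.36), against 28 and 20 at equal totals (median 0.58). Globins, which bind oxygen, had 3 of 11 higher and 6 lower (4 and 4 at equal totals). Of 117 ribosomal proteins, 38 were higher and 53 lower (median -1.41), against 53 and 41 at equal totals (median 0.56), with 40S ribosomal protein S3a at 10425.5 in condition B and 111524 in condition A (unigene 19267). Translation factors had 17 of 48 higher and 24 lower (20 and 20 at equal totals). Products named elongation factor G stood on both sides. Unigene 67643 had 27602.5 in condition B and 24 in condition A. Unigene 19625 had 1826.5 in condition B and 35684 in condition A. Its name, that of the mitochondrial form, rests on a match of 43 of 694 residues. Proteasome and ubiquitin products had 27 of 73 higher and 24 lower (41 and 15 at equal totals). They held 0.694% of the annotated counts in condition B and 0.257% in condition A. Their leading member, a proteasome alpha subunit, had 83594 in condition B and 1420 in condition A (unigene 87656). The next, the ubiquitin-like protein ATG12, went the other way, with 395 in condition B and 81962 in condition A (unigene 28173).

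Protein kinases, the largest class, had 89 of 208 members higher and 63 lower (median 1.23, and 3.18 at equal totals) and held 1.38% of the annotated counts in condition B and 0.725% in condition A. Only 26.0% of them were numbered up to the break. Protein phosphatases had 35 of 79 higher and 26 lower (median 1.51, and 3.45 at equal totals), yet held 0.316% in condition B and 0.748% in condition A, most of the share in condition A in unigene 17623. C2H2 zinc finger proteins had 37 of 70 higher and 25 lower (median 2.21, and 4.11 at equal totals). Dyneins and kinesins, the motors that walk on microtubules, had 11 of 19 higher and 3 lower (median 2.13, and 3.95 at equal totals), with 1 of the 19 numbered up to the break. That member, the kinesin vab-8, had 13 normalized counts in condition B and 25794 in condition A (unigene 24405).

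Receptor, channel and signalling products, only some of them of kinds that anthelmintic drugs act on, were few and split. GABA-gated and glutamate-gated channel products had 6 of 21 members higher and 12 lower (median -2.50), against 9 and 9 at equal totals (median -0.58). A GABA receptor subunit had 21.5 in condition B and 15486 in condition A (unigene 18733). Products named for acetylcholine had 3 of 10 higher and 7 lower (3 and 3 at equal totals). The 2 most abundant of these were transporters and not receptors, unigene 90241 with 5797 in condition B and 29580 in condition A and unigene 77870 with 11564.5 in condition B and 288 in condition A. Potassium channels, which set the resting voltage, had 4 of 14 higher and 4 lower (10 and 2 at equal totals). Of 7 neuropeptide precursors, which release small signalling peptides, 2 were higher and 4 lower (3 and 4 at equal totals), and the FMRFamide-related precursor of unigene 14403 had 252 in condition B and 78162 in condition A. Innexins, the gap junction proteins of invertebrates, had 10 of 29 higher and 11 lower (15 and 6 at equal totals).

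Mobile element products, the reverse transcriptases and integrases of transposons, had 41 of 131 members higher and 70 lower (median -2.43), against 49 and 50 at equal totals (median -0.51), and 58.0% of them were numbered up to the break. The reverse transcriptase of unigene 27522 had 66 normalized counts in condition B and 36706 in condition A. Tetraspanins, proteins that span the membrane and organize others in it, had 8 of 22 higher and 11 lower (10 and 9 at equal totals), with unigene 19817 at 286.5 in condition B and 113944 in condition A.

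**Figure D5:**
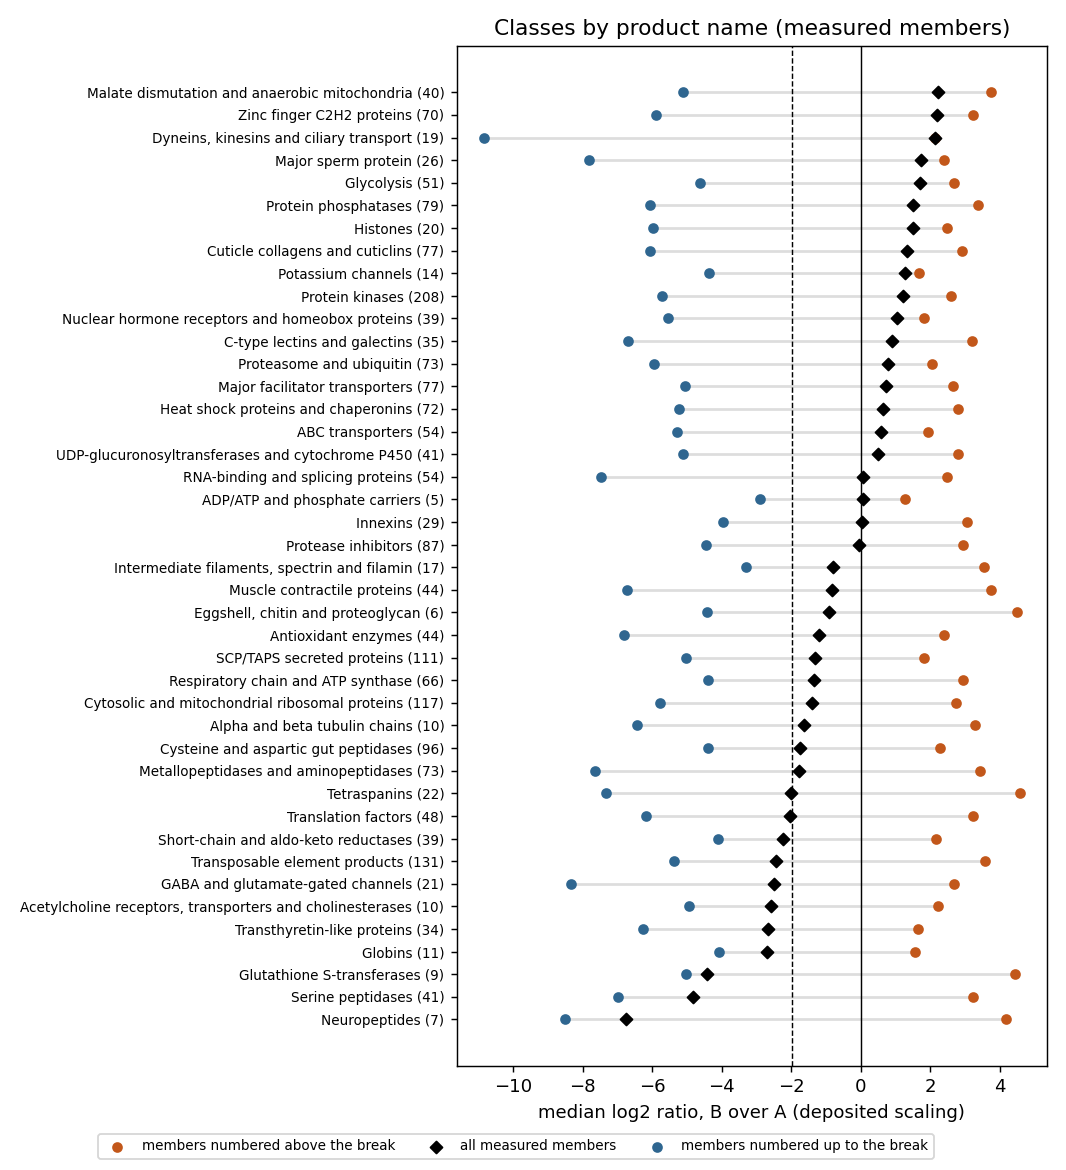
Median log2 ratio of condition B over condition A at the deposited scaling (x axis) of the measured members of the 42 classes with at least 5 of them (rows, number of members in brackets). Black diamonds are all members, orange points the members numbered above the break and blue points those numbered up to it, with no minimum number for the coloured points. The dashed line marks equal shares of the total. Blue points lie left of 0 and orange points right of it in each row, and the diamonds lie between or on them.

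Gene Ontology terms, which the table gives for 13243 measured annotated unigenes (66.3%), extend this to proteins without a name. Of 12587 measured unigenes with an uninformative name, 6996 carried a term. Of all measured annotated unigenes, 39.0% were higher and 39.6% lower. ATP binding, the most frequent molecular function, was close to this, with 601 of 1524 unigenes higher and 587 lower. It held 5.19% of the annotated counts in condition B and 6.18% in condition A. RNA binding had 149 of 346 higher and 122 lower, with 1.95% in condition B and 0.866% in condition A. G-protein coupled receptor activity, the receptors for many transmitters and odours, had 50 of 141 higher and 63 lower, and 112 of the 141 had no informative name. Cysteine-type peptidase activity had 19 of 90 higher and 47 lower, and intracellular protein transport 47 of 95 higher and 26 lower. Their medians were -2.10 and 1.96 at the deposited scaling, and -0.20 and 3.89 at equal totals. The median of all measured annotated unigenes was 0.44 at the deposited scaling and 2.34 at equal totals. The terms named are examples, and no rule for choosing them is given here. Other terms lay as far out, such as ATPase activity (median -2.37) and flavin adenine dinucleotide binding (median 2.10).

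The hits came from nematodes throughout, 80 species in all. Ancylostoma ceylanicum, a hookworm, was the best hit of 9740 unigenes, which held 47.4% of the annotated counts in condition B and 47.9% in condition A. Oesophagostomum dentatum, the nodular worm of pigs, was the best hit of 6726, with 28.4% in condition B and 22.7% in condition A. Hits to Haemonchus placei held 0.882% in condition B and 4.89% in condition A. Among nearer relatives of the species, Trichostrongylus vitrinus had 1 hit, Cooperia oncophora 3, Teladorsagia circumcincta 2, Haemonchus contortus 1075 and Haemonchus placei 263. The median identity was 72.4% for hits to each Haemonchus species, 75.65% for Ancylostoma ceylanicum and 83.1% for Oesophagostomum dentatum. The hit database is not named in the sources used here, and the species label was not tested with the hits. By species the overlap of the 2 compositions was 90.1%. Since no hit was to a sheep, moss or bacterial protein, RNA from such sources cannot be counted from the annotation.

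Hits outside the strongylid worms stood apart from the rest. The 1136 measured unigenes whose best hit was another nematode had a median identity of 56.3%, against 77.9% for strongylid hits (over all annotated unigenes). Their median ratio was -3.06, against 0.62 (-1.24 and 2.52 at equal totals). Of them, 25.0% were higher in condition B by 4-fold or more and 58.4% lower, and 59.4% were numbered up to the break. On each side of the break their medians were -5.75 and 2.68, close to the -5.67 and 2.84 of strongylid hits. Caenorhabditis remanei hits, 87 measured, had a median of -4.73, and 75.9% of them were numbered up to the break.

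The 2 libraries of Ascaridia galli, a chicken roundworm also kept with the extract or with water, were much closer to each other. Of 51840 measured annotated A. galli unigenes, 16.9% were higher in condition B by 4-fold or more and 6.21% lower, and 76.9% lay within 4-fold, against 21.4% in T. colubriformis. Their compositions overlapped by 76.6% by unigene and by 84.7% by informative product name, against 30.7% and 50.0% in T. colubriformis. A split by unigene number was also found there by the same rule, at number 100753, but with medians of -0.77 up to it and 0.53 above it. With 1 library per condition in each worm, the difference between the worms was not tested.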

How the data were processed

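Each worm has 1 deposited table, 1 line to a unigene. Its columns, per the file headers, hold normalized counts for both conditions, a log2 fold change, raw and adjusted p-values, and describe the best hit, percent identity included. The authors used DESeq for the differential analysis, per the submitters' processing notes, which give no version. No source used here names the assembler, aligner or hit database. The columns do not say which condition is extract, so the planned groups could not be assigned to them, and every ratio is condition B over condition A.

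The authors' deposited normalized counts are reads divided by 1 factor per library, as their steps show. They were turned back into reads, since each value is a multiple of 1 step per condition (100% whole within 0.1 read). Condition B held 91812201 reads and condition A 91182265. Of the read counts, 63.5% in condition B and 74.9% in condition A were even, so the exact (Clopper-Pearson) 95% intervals used reads divided by 2. They cover counting error only. The pseudocount of 1 is worth 2 reads in condition B and 0.5 read in condition A. The authors' deposited log2 fold changes equalled log2 of the deposited counts within their rounding.

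Ratios, shares and overlaps were computed in Python 3.11.15 (numpy 2.4.6, pandas 2.3.3, scipy 1.17.1). Ratios were taken at the deposited scaling, at equal totals and with a trimmed mean of M-values. The code was tested on simulated counts in which few unigenes changed, unlike these libraries. Which scaling suits these libraries was therefore not tested. There is 1 library per condition, so no test was made. Named transcripts were the 12 largest products per condition, the 10 largest ratios each way by interval bound, the 2 most abundant members of a class, the 10 most abundant products found on both sides and the 10 most abundant transcripts within 2-fold at both scalings, with informative names and 1 unigene per name. Of the ratios in favour of condition B, 1 is not reported here. Those within 2-fold at equal totals alone were added after their values were seen. Members, classes and rules were chosen with earlier results of these data known, and class lists were corrected and extended after product names were seen. No sequence is printed, since the files used here hold none.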

Additional observations from a re-analysis of the deposited data

How the results depend on the processing

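The counts at least 4-fold higher and at least 4-fold lower in condition B kept within 1.5 times of 7788 and 7914 at equal totals, with the trimmed mean of M-values, with a pseudocount of 5 and with no minimum. The count higher was 4988 with a minimum mean of 100 and 5187 when both ends of the counting interval had to pass 4-fold. Summed per product name, which leaves fewer items, there were 811 higher and 1117 lower. Numbered above the break, chosen after the data were seen, there were 652 lower, and numbered up to it 34 higher. The median ratio was 2.34 at equal totals, 1.43 with the trimmed mean, -1.07 with a minimum mean of 100, 0.00 with no minimum, -0.99 per product name, 2.84 above the break and -5.67 up to it. Its sign therefore has no standing of its own. Products found on both sides were 475 with a minimum mean of 100 and 1599 when counted per best-hit protein. Class medians above 0 numbered 31 of 42 at equal totals, 38 of 38 above the break and 0 of 37 up to it. Since the break was placed with the ratios themselves, the signs on either side of it are a description and no check. Of class medians at least 2 log2 units from 0 as reported, with at least 5 members left, 9 changed sign above the break, to 3.22 for translation factors, 1.55 for globins, 2.16 for short-chain and aldo-keto reductases, 1.64 for transthyretin-like proteins, 3.23 for serine peptidases, 2.23 for acetylcholine products, 2.68 for GABA and glutamate-gated channels, 3.56 for mobile elements and 4.57 for tetraspanins. Of the same, 2 changed sign up to the break, to -5.11 for anaerobic mitochondria and -5.88 for C2H2 zinc fingers. The overlap by product name was 82.7% with shortened names, 50.0% with informative names, 77.9% without the 10 top unigenes of each condition and 34.5% by best-hit protein. By unigene it was 29.4% over all unigenes and 26.9% without the top ones. Hits of at least 70% identity gave Ancylostoma ceylanicum 48.7% in condition B, and Oesophagostomum dentatum 33.2% in condition B and 24.5% in condition A. Without the top unigenes, Ancylostoma ceylanicum had 41.4% in condition B and 45.1% in condition A, and Oesophagostomum dentatum 31.0% in condition B and 26.6% in condition A. The cause of these shifts was not tested. No paired analysis was possible because each condition has 1 library and the columns carry no replicate number. In condition B 1709 annotated unigenes had 2 or fewer reads, and in condition A 3105, and ratios of those are the least certain.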
